A study of Mus musculus with 4 samples.

Results

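The 10 genes described here handle cellular iron: Trf, Tfrc, Steap3, Slc11a2 and Slc39a14 for uptake, Fth1 and Ftl1 for storage, Slc40a1 for export, Hmox1 for release of iron from haem, and Aco1 for sensing. They were taken by symbol from a table of 55487 genes, all 10 were found, and all 10 had enough reads to be tested. The set was chosen by the CPM and fold change of Steap3, one of the leading genes that rose after ovariectomy, so the sham and ovariectomy values of Steap3 are given as a description with no test, while the other 9 genes were placed in the set by their function. The study compared skeletal stem cells, sorted by flow cytometry from collagenase-digested metaphyses of long bones, between sham-operated wild-type mice (2 libraries) and ovariectomized wild-type mice (2 libraries). All 4 libraries carry the time 8 weeks, without a statement of whether this is age or time after surgery. Ovariectomy takes away most circulating oestrogen and is widely used in mice to model bone loss after menopause. The labels do not say whether the libraries of a group came from separate animals or from pools, so p-values rest on a spread between these samples that may be technical only.

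Iron circulates bound to transferrin, the product of Trf, which enters cells through the transferrin receptor encoded by Tfrc. Inside the endosome the ferric ion is reduced by a metalloreductase of the STEAP family, which in red cell precursors is Steap3, and it then crosses the endosomal membrane through the divalent metal transporter Slc11a2. Slc39a14 imports iron that is not bound to transferrin. Surplus iron is stored in ferritin, a shell of heavy (Fth1) and light (Ftl1) subunits, or leaves the cell through ferroportin (Slc40a1), the only known iron exporter of mammalian cells. The cytosolic aconitase Aco1 doubles as iron regulatory protein: when iron is scarce it binds hairpins called iron-responsive elements in the untranslated regions of several of these mRNAs, blocking translation from the 5′ end or protecting the mRNA from decay at the 3′ end. In bone, iron excess is known to accompany bone loss.

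Hairpins of that kind were searched for in the untranslated regions of the members, because binding at the 3′ end acts on the amount of mRNA while binding at the 5′ end acts on translation, which a count of mRNA reads does not show. The search asked for a C, then 5 bases, then the loop CAGTGN, then 5 bases that pair with the first 5, with G-T pairs allowed, on the transcript strand of GENCODE M21 (build GRCm38). The letters stood in the 5′ untranslated region of Fth1, Ftl1 and Slc40a1 and 4 times in the 3′ untranslated region of Tfrc. Across all annotated genes, 0.14% of those with a 5′ untranslated region and 0.613% of those with a 3′ untranslated region held a match. The matches are printed 5′ to 3′ as DNA in windows of 30 bases, with the loop in capitals:
Fth1, 5′ end: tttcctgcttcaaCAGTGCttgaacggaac
Ftl1, 5′ end: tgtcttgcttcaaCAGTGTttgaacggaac
Slc40a1, 5′ end: ccaacttcagctaCAGTGTtagctaagttt
Tfrc, 3′ end, match 1: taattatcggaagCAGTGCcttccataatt
Tfrc, 3′ end, match 2: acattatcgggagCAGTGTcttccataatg
Tfrc, 3′ end, match 3: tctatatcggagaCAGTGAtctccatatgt
Tfrc, 3′ end, match 4: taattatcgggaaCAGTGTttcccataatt

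The windows of the ferritin genes are the same at 27 of 30 positions, and lie at chr19:9982731-9982760 (plus strand) for Fth1 and chr7:45459779-45459808 (minus strand) for Ftl1. That of Slc40a1 lies at chr1:45925465-45925494 (minus strand) and is the same as the Fth1 window at 13 of 30 positions. Those of Tfrc, the same as each other at 18 to 25 of 30 positions, lie at chr16:32631218-32631247, chr16:32631597-32631626, chr16:32631662-32631691 and chr16:32631709-32631738 (plus strand). No window of these letters was found in the annotated untranslated regions of Steap3, Slc11a2, Slc39a14, Hmox1, Trf or Aco1, which says only that these exact letters are not there. The counts are per gene, so transcripts of 1 gene with and without such a hairpin cannot be told apart.

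The libraries held between 18291436 and 23721078 counts, and levels are given as TMM-scaled CPM, the counts of a gene relative to the scaled library total. Of 17120 genes tested, 716 (4.18%) passed edgeR at an adjusted p under 0.05, with 510 higher (2.98%) and 206 lower (1.20%) after ovariectomy. Higher genes were 71.2% of the calls, and 82.2% (718 higher, 156 lower) with library totals as the only scaling, which moved the median log2 fold change of all genes from -0.02 to 0.09. The edgeR calls below were not kept with either ovariectomy library left out, a fit whose spread came from the sham pair alone. With 1 sham library left out, the spread came from the ovariectomy pair alone. A call lost in such a fit does not tell a smaller difference from a wider spread. Of the antigens stained for the sort, Itgav (CD51) was at 67.3 to 72.0 CPM over the 4 libraries. Cd200 was lower after ovariectomy, from 237 and 305 CPM to 173 and 155 CPM (edgeR adjusted p = 0.0462). Cartilage and bone matrix genes stood far above them, with Col2a1 at 36879 to 73169 CPM and Col1a1 at 57192 to 88749 CPM.

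Apart from Steap3, 1 of the 9 genes passed the test, Hmox1, which was higher, and 8 did not pass. The groups did not overlap for 6 of the 9, against 49.3% of all genes tested. Both ovariectomy libraries lay above both sham libraries for 5 of the 9 (25.5% of all genes tested) and below them for 1 of the 9 (23.9% of all genes tested). The median log2 fold change of the 9 genes was 0.13, against -0.02 over all genes tested.

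**Figure D1:**
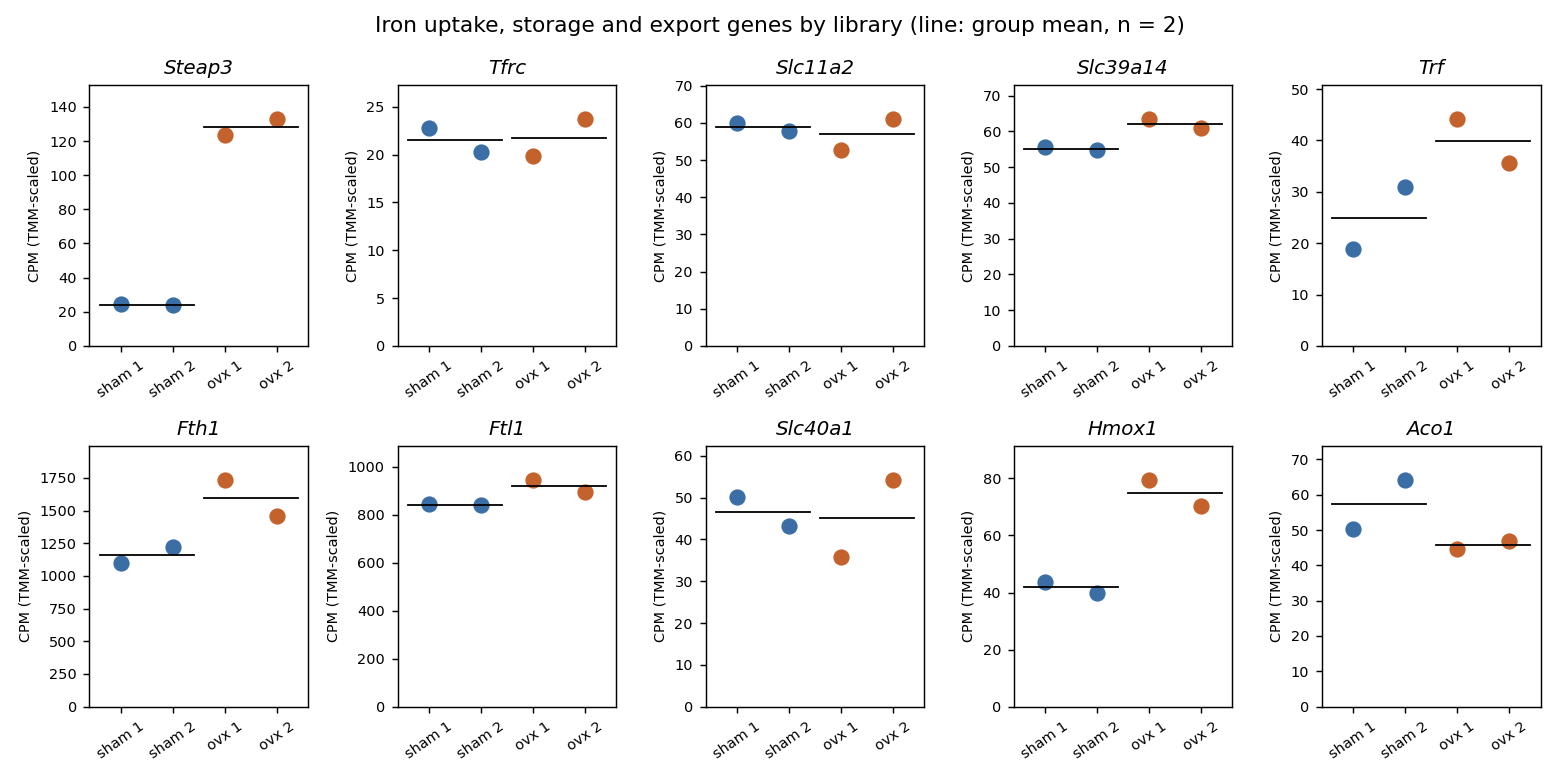
Level of each of the 10 genes in CPM (vertical axes from 0) in the 2 sham (blue) and 2 ovariectomy (orange) libraries, with a line at each group mean. Steap3 goes from about 24 to 128 CPM and Hmox1 from 41.8 to 74.9 CPM, while the sham and ovariectomy points of Tfrc, Slc11a2 and Slc40a1 overlap.

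Steap3 (ENSMUSG00000026389, chr1:120190757-120272705, minus strand), the endosomal metalloreductase, stood at 24.4 and 24.0 CPM for sham 1 and 2, against 123 and 133 CPM for ovariectomy 1 and 2. The replicates of each group lay close together (24.2 ± 0.315 and 128 ± 6.78 CPM, SD, n = 2), and the groups did not overlap. The ratio of the group means was 5.29, between 5.09 and 5.49 with any 1 library left out, and 5.70 with library totals as the only scaling. These values chose the gene and carry no test. In bulk RNA, here and below, more cells of a type and more RNA per cell cannot be told apart. Steap3 is also known as a gene activated by p53.

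The other STEAP reductases were lower or did not pass. Steap4, a plasma membrane and endosomal reductase of iron and copper known from fat and inflamed tissue, was at 145 and 118 CPM for sham 1 and 2, with 73.6 and 80.6 CPM for ovariectomy 1 and 2. All sham values of Steap4 lay above all ovariectomy values, and it fell 1.71-fold (log2 fold change -0.77 ± 0.15 SE, edgeR adjusted p = 0.0338). The call was lost with library totals as the only scaling (0.0583), and without ovariectomy 1 or 2, where the log2 fold change was -0.69 and -0.83 (0.445 and 0.386). Steap1, which lacks the reductase domain of its relatives, was at 72.5 and 61.5 CPM in the sham libraries, against 65.8 and 43.6 CPM after ovariectomy (log2 fold change -0.29 ± 0.21 SE, edgeR adjusted p = 0.548). Steap2 was at 21.5 and 23.5 CPM for sham 1 and 2, with 31.9 and 25.1 CPM for ovariectomy 1 and 2 (0.34 ± 0.19 SE, 0.422). Neither passed, and the values of Steap1 overlap between the groups while those of Steap2 do not. Summed over the 4 genes, STEAP reads came to 264 and 227 CPM in the sham libraries, against 295 and 282 CPM after ovariectomy. Steap3, whose values chose the set, made up 24.4 and 24.0 CPM of the sham sums and 123 and 133 CPM of the ovariectomy sums. Without Steap3 the summed level was lower in each ovariectomy library than in either sham library.

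The receptor and transporters that act with the reductase did not pass the test. Tfrc (ENSMUSG00000022797, chr16:32608920-32632794), whose 3′ end holds the matches printed above, was at 22.8 and 20.3 CPM for sham 1 and 2, with 19.8 and 23.7 CPM for ovariectomy 1 and 2. The sham values lie between the ovariectomy values, and the log2 fold change was 0.01 ± 0.20 SE (edgeR adjusted p = 0.986). Its sign turned in 3 of 12 alternatives. Slc11a2 (ENSMUSG00000023030, chr15:100387898-100425072) was at 59.9 and 58.0 CPM in the sham libraries, against 52.8 and 61.1 CPM after ovariectomy (-0.05 ± 0.14 SE, 0.918). Its values overlap too, and its sign turned in 2 of 12 alternatives, library totals among them. Over all 12 alternatives the log2 fold change ran from -0.11 to 0.16 for Tfrc and from -0.14 to 0.07 for Slc11a2. The opposite-strand locus Gm5475, with 3 to 23 counts, shares 6.33% of the exon length of Slc11a2.

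Slc39a14 (ENSMUSG00000022094, chr14:70303469-70351425), the importer of iron not bound to transferrin, was at 55.5 and 54.7 CPM for sham 1 and 2, with 63.5 and 60.9 CPM for ovariectomy 1 and 2. The ovariectomy values lay above the sham values by a small margin, a ratio of 1.13, which did not pass (log2 fold change 0.17 ± 0.13 SE, edgeR adjusted p = 0.570). The ligand gene Trf (ENSMUSG00000032554, chr9:103204001-103230444) was at 18.9 and 31.0 CPM in the sham libraries, against 44.2 and 35.7 CPM after ovariectomy. Its values did not overlap, but sham 1 lay well under sham 2, and the log2 fold change of 0.68 ± 0.25 SE did not pass (edgeR adjusted p = 0.213). Trf passed without sham 2 (1.09, adjusted p = 0.00640) and with no filter on low counts (0.0159), and it stood at 0.37 (0.372) without sham 1. In GENCODE M21 the locus Gm20425 covers 63.5% of its exon length on the same strand. No counted gene carried the symbol Gm20425.

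Ferritin mRNAs were the most abundant of the set and together took 0.190% and 0.195% of the counts of sham 1 and 2 and 0.273% and 0.248% of those of ovariectomy 1 and 2. Fth1 (ENSMUSG00000024661, chr19:9980598-9985098), the heavy subunit with the ferroxidase centre that oxidizes iron for storage, was at 1102 and 1221 CPM for sham 1 and 2, with 1735 and 1459.5 CPM for ovariectomy 1 and 2. Both ovariectomy values lay above both sham values, by a ratio of means of 1.38. The log2 fold change of 0.46 ± 0.12 SE did not pass the main test (edgeR adjusted p = 0.0891), but it passed in 7 of 12 alternatives. It passed with DESeq2 (0.00331), with limma-voom (0.0324), on library totals (0.0323), unfiltered (0.00785), and with a mean of at least 5 CPM (0.0464), the replicate block (0.0476) or sham 2 left out (0.0259). Without ovariectomy 1 the log2 fold change was 0.35 (0.522).

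Ftl1 (ENSMUSG00000050708, chr7:45457944-45459884), the light subunit that helps the iron core form, had a smaller difference. It was at 845 and 839 CPM in the sham libraries, against 946 and 895 CPM after ovariectomy, a ratio of 1.09 (log2 fold change 0.13 ± 0.10 SE, edgeR adjusted p = 0.577). The ovariectomy values of Ftl1 also lay above the sham values, and it passed in none of the 12 alternatives. The ratio of Fth1 to Ftl1, per length of the principal transcript of each gene, was 0.845 and 0.942 for sham 1 and 2, below the 1.19 and 1.06 of ovariectomy 1 and 2. The groups did not overlap in this ratio, which was not tested. With the length of all annotated exons the same ratio was 0.504 and 0.562 for sham 1 and 2, below the 0.708 and 0.630 of the ovariectomy libraries. Ftl1 was thus above Fth1 in the sham libraries with either length, while in the ovariectomy libraries the order depended on the length taken. Ferritin genes have processed copies that can split reads: 5 named ferritin pseudogenes in the table held between 378 and 469 counts per library in all, against 17241 to 22381 counts of Ftl1. The opposite-strand locus Gm10252 and a microRNA locus share 34.6% of the exon length of Ftl1, and held 1 to 20 and 0 counts.

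Ferroportin mRNA did not move in one direction. Slc40a1 (ENSMUSG00000025993, chr1:45908068-45926523) was at 50.0 and 43.1 CPM for sham 1 and 2, with 35.8 and 54.3 CPM for ovariectomy 1 and 2, so that the ovariectomy libraries held both the lowest and the highest value. The log2 fold change was -0.05 ± 0.22 SE (edgeR adjusted p = 0.952). The sign turned with library totals, without sham 1 and without ovariectomy 1.

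Hmox1 (ENSMUSG00000005413, chr8:75093621-75100589), the inducible haem oxygenase that opens the haem ring and frees its iron, rose. It was at 43.7 and 39.9 CPM in the sham libraries, against 79.5 and 70.3 CPM after ovariectomy. The groups did not overlap and the replicates of each lay close together (41.8 ± 2.67 and 74.9 ± 6.51 CPM, SD, n = 2), higher by 1.79-fold (edgeR adjusted p = 0.0221, with a log2 fold change of 0.84 ± 0.14 SE). Hmox1 passed in 10 of 12 alternatives, and the log2 fold change ranged from 0.77 to 0.94 over all 12. It did not pass without ovariectomy 1 (0.77, adjusted p = 0.356) or without ovariectomy 2 (0.94, 0.268). The constitutive haem oxygenase Hmox2 was at 30.5 and 25.7 CPM for sham 1 and 2, with 22.1 and 23.2 CPM for ovariectomy 1 and 2 (log2 fold change -0.31 ± 0.18 SE, edgeR adjusted p = 0.442). It shares 40.2% of its exon length with Cdip1 on the other strand.

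Aco1 (ENSMUSG00000028405, chr4:40143081-40198338), the aconitase that turns into iron regulatory protein when its iron-sulphur cluster is lost, was the member whose ovariectomy values both lay below the sham values. It was at 50.4 and 64.2 CPM in the sham libraries, against 44.7 and 46.8 CPM after ovariectomy. The difference did not pass (edgeR adjusted p = 0.360, with a log2 fold change of -0.32 ± 0.16 SE) and kept its sign in all 12 alternatives, from -0.49 to -0.13. The sister protein gene Ireb2, which senses iron without a cluster, was at 14.6 and 19.5 CPM for sham 1 and 2, with 13.7 and 15.8 CPM for ovariectomy 1 and 2 (-0.21 ± 0.24 SE, adjusted p = 0.743). Fbxl5, the iron-sensing adaptor that marks that protein for breakdown, was at 129 and 103 CPM in the sham libraries, against 118 and 117 CPM after ovariectomy (0.01 ± 0.14 SE, adjusted p = 0.982).

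Of the 11 genes of iron sensing and the hepcidin axis, 8 were tested and 0 passed in either direction, with a median log2 fold change of 0.48. By edgeR 4 of the 8 had an unadjusted p under 0.05, against 3154 of all 17120 genes tested. DESeq2 and limma-voom each called 1 of the 8, against 1406 and 947 of all genes tested. The hepcidin genes themselves, Hamp and Hamp2, which encode or resemble the liver hormone that removes ferroportin, had 0 to 4 counts per library, and Hjv had 1 to 16. Neo1, a receptor that works with hemojuvelin, was at 107 and 102 CPM for sham 1 and 2, with 64.4 and 73.8 CPM for ovariectomy 1 and 2. Its groups did not overlap, and its log2 fold change of -0.60 ± 0.13 SE missed the main test (edgeR adjusted p = 0.0574) and passed in 7 of 12 alternatives (lowest 0.00379, with the DESeq2 test). Bmp6, which raises hepcidin in liver, stood at 3.52 (sham 1) and 13.8 CPM (sham 2), against 8.75 and 13.9 CPM after ovariectomy. The Bmp6 log2 fold change of 0.39 ± 0.58 SE did not pass (edgeR adjusted p = 0.818), was -0.29 without sham 1, and passed at 1.69 without sham 2 (0.0129). Erfe, the erythroid hormone that lowers hepcidin, had 14 and 8 counts in the sham libraries, against 54 and 36 counts after ovariectomy (2.07 ± 0.75 SE, edgeR adjusted p = 0.199). Tmprss6, a protease gene that holds hepcidin down in liver, had 0 counts in either sham library, against 11 and 12 counts after ovariectomy, at least 4.07-fold higher against a floor of 3 counts per library, and did not pass (0.133). Usp35 was at 0.535 and 1.96 CPM in the sham libraries, against 3.21 and 2.75 CPM after ovariectomy, and passed only without sham 2 (2.48, adjusted p = 0.0422), among the 11 alternatives that tested it. March8, whose product sends the transferrin receptor for breakdown, was at 9.81 and 10.9 CPM for sham 1 and 2, with 15.7 and 15.2 CPM for ovariectomy 1 and 2 (0.58 ± 0.23 SE, 0.229).

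**Figure D2:**
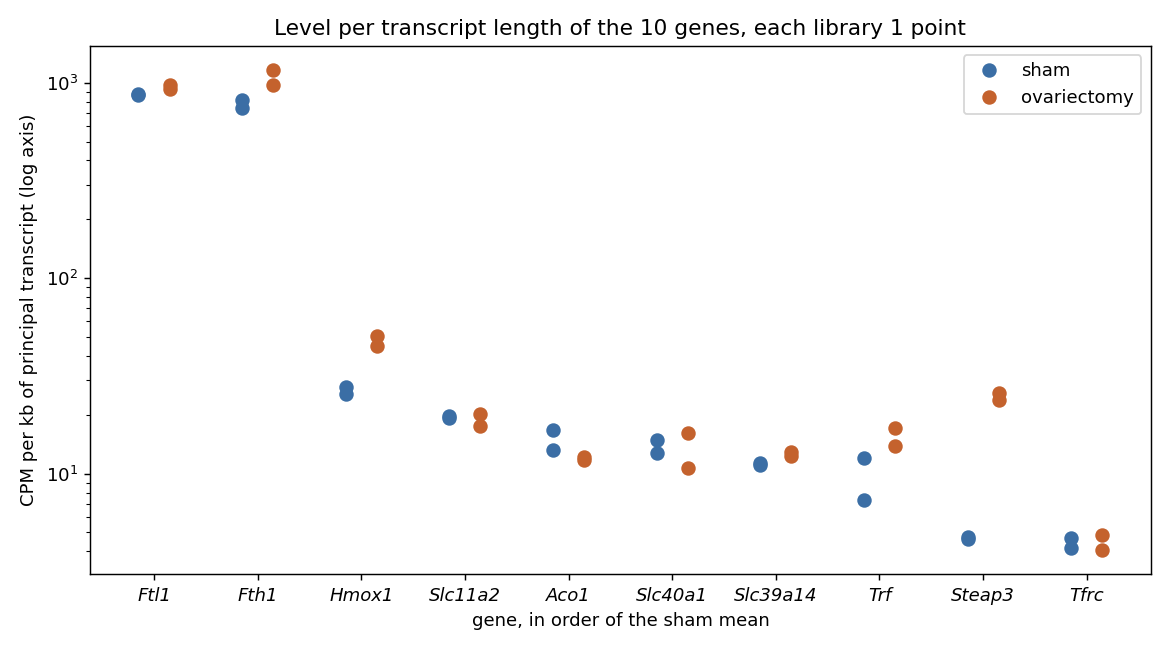
CPM per kb of the principal transcript (log axis) of the 10 genes in the order of the sham mean, with 1 point per library (sham blue, ovariectomy orange). The ferritin genes stand far above the rest at group means of 777 to 1069 CPM per kb, and Steap3 goes from 4.70 to 24.8 CPM per kb.

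Per kb of the principal transcript, the sham order of levels ran from Ftl1 (870 ± 4.04 CPM per kb) and Fth1 (777 ± 56.0) through Hmox1 (26.7 ± 1.70), Slc11a2 (19.5 ± 0.452), Aco1 (15.0 ± 2.56), Slc40a1 (13.8 ± 1.46), Slc39a14 (11.2 ± 0.123) and Trf (9.70 ± 3.33) to Steap3 (4.70 ± 0.061) and Tfrc (4.41 ± 0.367; SD, n = 2 throughout). Aco1 and Slc40a1, Slc39a14 and Trf, and Steap3 and Tfrc lay within the spread of their libraries, so neither gene of these pairs can be placed above the other in sham cells. In ovariectomy cells Steap3 stood at 24.8 ± 1.31 CPM per kb, next below Hmox1 (47.8 ± 4.15) and above Slc11a2 (18.8 ± 1.93). In ovariectomy cells Tfrc was at 4.45 ± 0.565 CPM per kb.

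The wider iron pathway was read from lists by role. Of 89 tested genes in these lists that are no members, 5 were higher and 3 lower, against 2.98% and 1.20% of all genes tested, with a median log2 fold change of 0.18. These shares are also the background for the counts of each list that follows. In the list of other import genes 2 of 16 were higher and 1 lower. Scara5, a scavenger receptor that takes up ferritin and is known from stromal fibroblasts, was at 7.23 and 8.64 CPM in the sham libraries, against 32.0 and 40.0 CPM after ovariectomy, higher by 4.54-fold (edgeR adjusted p = 0.00439, with a log2 fold change of 2.18 ± 0.22 SE). Tfr2, the second transferrin receptor, found in liver and red cell precursors, had 20 and 18 counts in the sham libraries, against 122 and 209 counts after ovariectomy (3.23 ± 0.51 SE, edgeR adjusted p = 0.0163), and missed the threshold with limma-voom (0.0561). Meltf, melanotransferrin, an iron-binding membrane protein abundant in cartilage, fell 1.80-fold from 1870 and 1472 CPM in sham to 933 and 925 CPM in ovariectomy libraries (edgeR adjusted p = 0.0154). Without ovariectomy 1 or 2 none of these 3 passed, with log2 fold changes of 2.35 and 2.03 for Scara5, 3.69 and 2.61 for Tfr2 and -0.84 and -0.83 for Meltf.

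Of 5 tested genes listed under iron and haem export, 1 was higher and 1 lower. Placement in that list does not show that a gene exports iron. Cp, ceruloplasmin, the copper ferroxidase that loads exported iron onto transferrin, was at 66.5 and 73.4 CPM for sham 1 and 2, with 145 and 186 CPM for ovariectomy 1 and 2, higher by 2.36-fold (edgeR adjusted p = 0.00784, with a log2 fold change of 1.24 ± 0.16 SE). Flvcr2, a transporter first linked to haem, fell 1.69-fold from 209 and 183 CPM to 131 and 102 CPM (-0.75 ± 0.16 SE, edgeR adjusted p = 0.0458), and missed the threshold with library totals (0.0587). Without ovariectomy 1 or 2 the log2 fold changes were 1.43 and 1.06 for Cp and -0.93 and -0.57 for Flvcr2, and neither passed.

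No gene passed among 5 ferritin partners, 9 of haem synthesis, 5 of haem breakdown, 13 of iron-sulphur cluster assembly and 5 other mRNAs with an iron-responsive element. By edgeR 3, 2, 2, 2 and 1 of them had an unadjusted p under 0.05, against 3154 of all 17120 genes tested. DESeq2 and limma-voom called 0 of them, against 1406 and 947 of all genes tested. The more abundant genes of these lists are given by their log2 fold changes. Tax1bp1 and Pcbp1, which serve ferritin turnover and iron loading, had 0.33 and 0.33. The less abundant Ncoa4, Pcbp2 and Herc2 of the same list had -0.30, -0.52 and -0.07, and the median of that list was -0.07. Fech and Ppox, enzymes at the end of haem synthesis, had 0.39 and -0.16. Iscu and Isca1, scaffold and carrier proteins of cluster assembly, had -0.08 and -0.15, and the haem-binding protein gene Pgrmc1 had -0.02. Epas1, whose mRNA is known to carry a 5′ hairpin, had -0.07. Of 13 genes of the NRF2 list, transcription factor NRF2 being a known activator of Hmox1 and of the ferritin genes, 1 was higher. That was Nfe2l2, which encodes the factor itself, at 67.7 and 74.7 CPM in the sham libraries, against 124 and 124 CPM after ovariectomy (1.74-fold, log2 fold change 0.80 ± 0.13 SE, edgeR adjusted p = 0.0166). The other 12 genes of the NRF2 list were not called, and the median log2 fold change of the 13 was 0.22. Both ovariectomy libraries lay above both sham libraries for 5 of the 13 (25.5% of all genes tested). They lay below for 1 of the 13 (23.9% of all genes tested). Of 9 genes tied to ferroptosis, a form of cell death driven by iron, 1 was higher, the polyamine enzyme gene Sat1 (1.69-fold, from 151 and 128 to 246 and 226 CPM, edgeR adjusted p = 0.0238). Nfe2l2 and Sat1 did not pass without ovariectomy 1 or 2, with log2 fold changes of 0.82 and 0.81 for Nfe2l2 and 0.71 and 0.83 for Sat1.

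**Figure D3:**
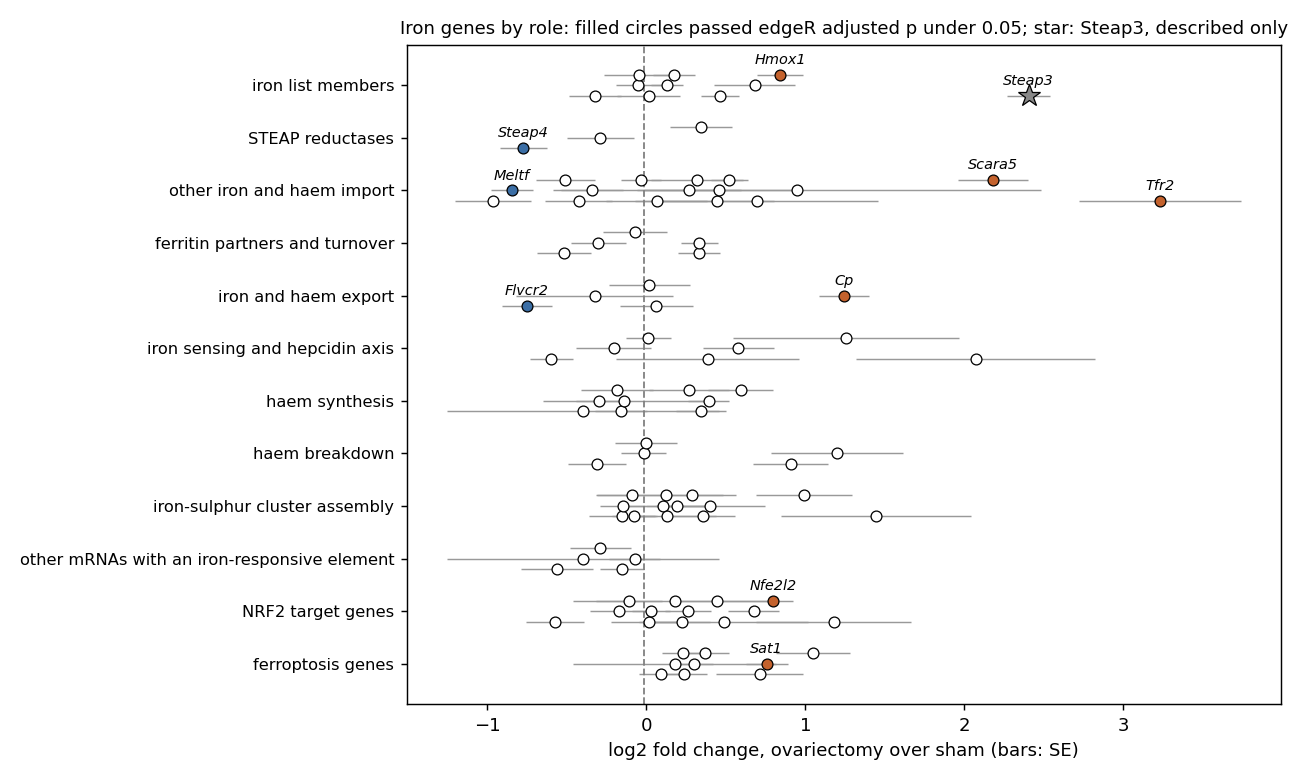
Log2 fold change, ovariectomy over sham, of each tested gene of the 12 lists (circles, horizontal bars SE), with genes that passed edgeR filled orange (higher) or blue (lower) and the dashed line at the median of all genes tested (-0.02). Steap3 (star, 2.40) is described only, and Tmprss6, with 0 counts in sham, is left out.

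**Figure D4:**
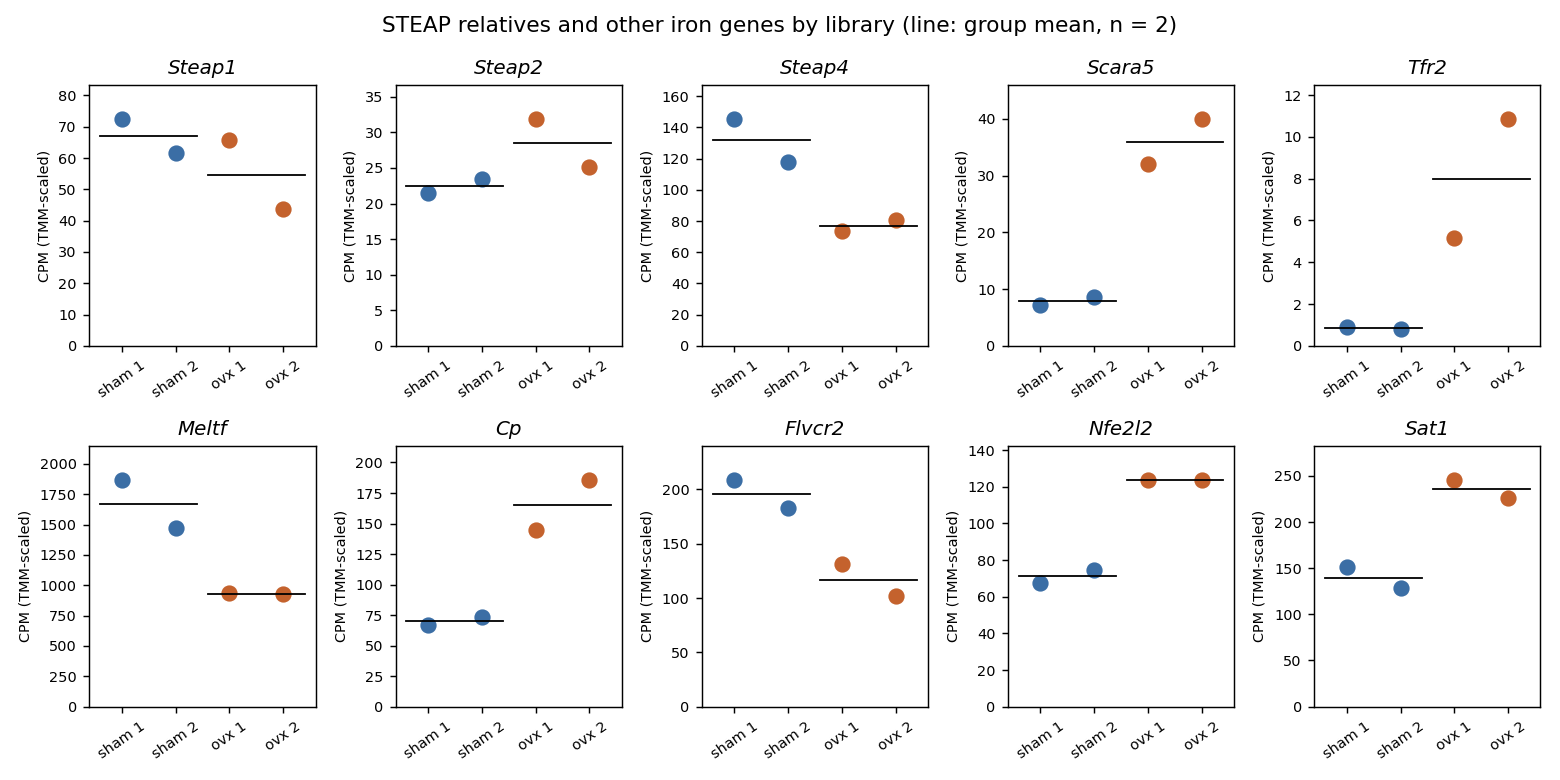
CPM by library (vertical axes from 0, line at the group mean) of the other STEAP genes and of the iron genes outside the set that passed. Scara5, Tfr2, Cp, Nfe2l2 and Sat1 are higher in both ovariectomy (orange) libraries and Steap4, Meltf and Flvcr2 lower, while Steap1 overlaps.

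Markers of other cells moved with the groups in the same libraries, although the stain included the erythroid antigen Ter119 and the leukocyte antigen CD45, by which such cells are usually gated out. Red cell precursors use several of these genes heavily. Of 17 tested erythroid markers 7 were higher and 0 lower by edgeR (2.98% and 1.20% of all genes tested). DESeq2 called 9 and limma-voom 4 of the 17, against 1406 and 947 of all 17120 genes tested. Summed erythroid levels were 62.0 and 45.6 CPM for sham 1 and 2, against 207 and 305 CPM for ovariectomy 1 and 2. The carbonic anhydrase gene Car1 was at 0.134 and 0.712 CPM in the sham libraries, against 51.3 and 87.1 CPM after ovariectomy, and Rhag rose at least 35.8-fold from 0 counts in either sham library. Hba-a1 was at 20.5 and 12.2 CPM for sham 1 and 2, with 34.3 and 32.1 CPM for ovariectomy 1 and 2, and Alas2, the erythroid haem synthesis enzyme, at 2.63 and 1.42 CPM and at 2.58 and 0.467 CPM. Tfrc, which red cell precursors carry in quantity, was at 19.8 to 23.7 CPM over all 4 libraries. Tfr2 is itself in the erythroid list, as is Alas2 in that of haem synthesis. The part of such cells in the Steap3, Tfr2 and Erfe values was not tested.

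Macrophages recycle haem iron and are rich in Hmox1 and Slc40a1. Of 12 tested macrophage markers 0 passed edgeR, and 4 had an unadjusted p under 0.05 (3154 of all 17120 genes tested). DESeq2 called 1 and limma-voom 0 of the 12, against 1406 and 947 of all genes tested. For 8 of the 12 both ovariectomy libraries lay above both sham libraries (25.5% of all genes tested), and for 0 below (23.9%). The summed level of the macrophage list was 53.1 and 53.6 CPM in the sham libraries, against 66.3 and 114 CPM after ovariectomy. Lyz2, which granulocytes share, was at 24.3 to 78.6 CPM. Of the defining markers Adgre1 was at 0.134 to 1.56 CPM, C1qa at 0 to 1.61 CPM and Vsig4 at 0 to 0.364 CPM, and Cd163, the receptor for haemoglobin bound to haptoglobin, at 0.801 to 2.03 CPM. Csf1r and Cd68 of the same list overlapped between the groups, with log2 fold changes of -0.42 and -0.19. Csf1r was at 0.0892 and 8.50 CPM for sham 1 and 2, with 0.972 and 5.51 CPM for ovariectomy 1 and 2. Cd68 was at 7.49 and 10.997 CPM in the sham libraries, against 8.92 and 7.32 CPM after ovariectomy. Neutrophil markers summed to 140 and 89.4 CPM for sham 1 and 2, with 186 and 292 CPM for ovariectomy 1 and 2, with 2 of 10 called higher, Mpo and Elane. Mpo went from 3.39 and 0.490 CPM to 58.3 and 110.3 CPM, while Ngp, Camp, S100a9, Ltf and Ly6g overlapped between the groups. Pericyte and smooth muscle markers, with 3 of 6 higher, summed to 307 and 334 and to 580 and 632 CPM. Skeletal stem and stromal markers summed to 507 and 674 and to 855 and 981 CPM, with 4 of 8 higher (Pdgfra, Prrx1, Ly6a and Cxcl12) and Cd200 lower. Lymphocyte markers summed to 3.26 and 4.10 CPM in the sham libraries, against 13.3 and 21.9 CPM after ovariectomy, megakaryocyte markers to 3.48 and 13.7 and to 7.36 and 8.73 CPM, and endothelial markers to 15.1 and 63.5 and to 66.8 and 94.1 CPM. Osteoclast markers, with Ctsk higher and Mmp9 lower of 4 tested, summed to 208 and 279.5 CPM for sham 1 and 2, with 368 and 357 CPM for ovariectomy 1 and 2. Ctsk made up most of that sum, at 143 and 152 CPM for sham 1 and 2 and 306 and 292 CPM for ovariectomy 1 and 2, and Mmp9 fell 3.72-fold (edgeR adjusted p = 0.0341). Osteoblast markers, with 4 of 9 lower and 1 higher, summed to 95357 and 129801 and to 86774 and 78433 CPM. Chondrocyte markers fell too, with 7 of 8 lower and sums of 103148 and 95373 CPM in the sham libraries, against 60213 and 54780 CPM after ovariectomy, beside the fall of Meltf. The part of any of these cells in the values of Steap3, Hmox1, Fth1, Scara5, Cp and Meltf was not tested.

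**Figure D5:**
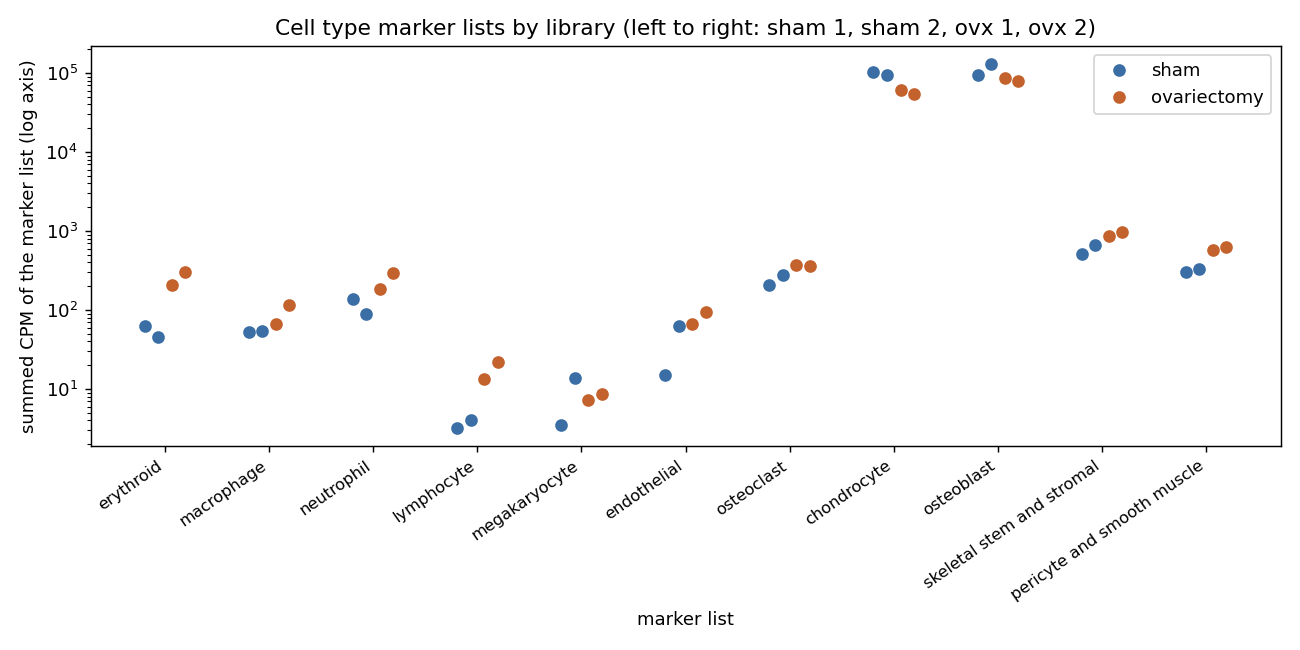
Summed CPM (log axis) of each cell type marker list in the 4 libraries, from left to right sham 1, sham 2 (blue), ovariectomy 1 and ovariectomy 2 (orange). Erythroid sums go from 45.6 to 62.0 CPM in sham to 207 to 305 CPM in ovariectomy libraries, chondrocyte and osteoblast sums fall, and megakaryocyte sums overlap.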

How the data were processed

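RNA of 4 libraries, 2 sham and 2 ovariectomy, was made into cDNA with a SMARTER kit, per the labels' protocols. The authors deposited whole-number counts per gene. Trim Galore 0.6.6, featureCounts 2.0.1 and build GRCm38 (mm10) are named in the submitters' processing notes, while the aligner, annotation release and strand setting were not given in the sources used here. Where genes overlap on opposite strands, reads may therefore have been counted to either gene, to both or to none.

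Ensembl IDs were given GENCODE M21 symbols (55227 of 55487 matched), and 2 newer symbols were matched through RefSeq synonyms. One marker, Ahsp, was not matched. The counts were filtered with edgeR's filterByExpr at its default settings (17120 genes left), TMM-scaled and tested with the quasi-likelihood test of edgeR 4.0.16 (R 4.3.3) between groups, with Benjamini-Hochberg adjustment over all genes tested and a threshold of 0.05. SE is the absolute log2 fold change divided by the root of the F statistic. The common biological coefficient of variation was 0.317, and 1 count was worth 0.0423 to 0.0519 CPM. Levels per kb use the longest of the best-ranked APPRIS principal transcripts. Scripts were tested on simulated data.

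The 10 genes and all lists were chosen with earlier results of these data known. Named genes are the members, the tested STEAP and iron sensing genes, of each other list up to 4 called genes by smallest p or, with none, the 2 most abundant, and of marker lists the most abundant and up to 3 defining genes. Some genes were chosen after their values were seen, where that rule does not take them. They are Car1, Rhag, Alas2, Vsig4, Cd163, Cd68, Csf1r, Ncoa4, Pcbp2, Herc2 and the osteoclast, neutrophil and stromal markers. Alternatives were other scalings, DESeq2 1.42.0, limma-voom (limma 3.58.1), other filters, a replicate block and each library left out. Same-numbered libraries are not stated to share an animal or day. Figures were drawn with matplotlib 3.10.9. Of the genes this rule takes, 2 are not reported here.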

Additional observations from a re-analysis of the deposited data

How the results depend on the processing

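With 2 libraries a group, calls depend on the spread edgeR assigns to each gene. The 716 calls (510 higher, 206 lower) became 1406 (923, 483) with DESeq2, 1656 (1112, 544) with no filter and 1104 (406 lower) at a mean of at least 5 CPM, and lower calls became 313 with limma-voom. With 1 library left out there were 0 to 1835 calls, 0 to 1277 higher and 0 to 558 lower, where the lone library of a group is assumed to vary like the other group. Of the 9 genes besides Steap3, 1 was called, against 2 with library totals, DESeq2, limma-voom, a mean of at least 5 CPM or the replicate block, 3 with no filter, and 0 to 3 with 1 library left out. Of the other iron genes 8 were called, against 13 with DESeq2, 17 with no filter and 0 to 17 with 1 library left out. The Steap3 ratio was 5.70 with library totals and 5.09 to 5.49 with 1 library left out.

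Deviations of same-numbered libraries correlated at 0.00429 across genes. With 2 libraries a group, this value cannot decide whether the replicate numbers pair the libraries. With the replicate block 1074 genes were called (745 higher, 329 lower), and Fth1 passed (0.0476).

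Over 37 named genes, 377 of 438 values kept direction and side of the threshold, 21 lost and 18 gained a call, and 22 turned sign; the cause was not tested. With library totals the log2 fold change was 0.057 for Slc11a2, 0.059 for Slc40a1, 0.090 for Pgrmc1, 0.029 for Iscu and 0.036 for Epas1. Upper-quartile scaling gave -0.030 for Tfrc and -0.033 for Fbxl5, and a mean of at least 5 CPM gave -0.00083 for Fbxl5. With 1 library left out it ranged from -0.11 to 0.16 for Tfrc, -0.14 to 0.069 for Slc11a2, -0.36 to 0.24 for Slc40a1, -0.40 to 0.031 for Ireb2, -0.13 to 0.18 for Fbxl5, -0.29 to 1.69 for Bmp6, -0.31 to 0.020 for Ppox, -0.15 to 0.14 for Pgrmc1 and -0.21 to 0.077 for Epas1, and was 1.3e-05 for Iscu without ovariectomy 2.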
